A study of Mus musculus with 54 samples.

Results

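Accessible chromatin around 9 genes of the endoderm lineage was examined in mouse embryonic stem (ES) cells: the transcription factor genes Gata4, Gata6, Sox7, Sox17, Foxa1, Foxa2 and Hnf4a, the growth factor receptor gene Pdgfra and the adaptor gene Dab2. They were chosen by name as 9 of 21938 protein-coding genes. The peaks assigned to them were those whose centre lay within 50 kb of a transcription start site (TSS) of the gene in the GENCODE M21 annotation of GRCm38, which gave 82 of the 113737 peaks of the list. Of these, 16 were TSS peaks of the genes themselves (centre within 1 kb of an own TSS), 54 were distal (centre more than 1 kb from every annotated TSS) and 12 were centred within 1 kb of the TSS of another gene only.

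GATA4 and GATA6 are zinc finger factors that drive the primitive endoderm of the blastocyst, the sister lineage of the epiblast from which ES cells derive, and forcing either one in ES cells turns them towards extraembryonic endoderm. SOX7 and SOX17 are SOX factors of the F group that act with them, whereas FOXA1, FOXA2 and HNF4A are factors of the gut endoderm, liver and visceral endoderm. In self-renewing ES cells these genes are largely silent, and many of their promoters lie in CpG islands, stretches of DNA rich in the dinucleotide CG that stay free of DNA methylation.

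The samples came from ZHBTc4 cells, whose untagged OCT4 is shut off by doxycycline (dox). All of them carried mCherry-OCT4-AID, an OCT4 fusion degraded after addition of indole-3-acetic acid (IAA), the ubiquitin ligase Tir1 that this degradation needs, and the cell cycle reporter YPet-MD, and all received dox. According to the paper, the medium held serum, LIF, CHIR99021 and PD184352. It also reports that the fusion was expressed at low levels from the PGK promoter and carries a point mutation in OCT4. A cell cycle set of 22 samples had 26 hr of dox, with or without 500 nM IAA for the last 2 hr, before it was sorted into 4 phases (EG1 and LG1 in G1, S, and SG2 at the end of the cycle). In the washout set of 16 samples the same phases were sorted after 31 hr of dox, with 2.5 hr of IAA or none and 4.5 hr of washout. The unsorted time course of 16 samples had 34 hr of dox and no IAA, or IAA for 30 min or for 1, 2, 3, 4, 6 or 10 hr. All constructs were delivered by lentivirus and the cells were sorted for reporter signal and for loss of mCherry under IAA, so the line is a selected population. Peaks of all these libraries were merged into 1 list, which gives positions and no signal, so the 24 groups, each of 2 or 3 samples, could not be compared, there is no error between replicates and the depth is unknown. A region called in a single library can enter a merged list, and whether a listed region was open in most cells or in a few differentiated ones cannot be told apart. All 10 pluripotency genes used as ES cell markers, Pou5f1, Sox2 and Nanog among them, had a TSS peak, and so did 3 of 10 genes of terminal tissues. A peak is not expression.

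Some annotated starts of these genes lay inside a peak and others did not, and their sequences are shown first because the base composition differed between them. The RefSeq promoter table of GRCm38.p6, in which a window runs from 250 bases before to 50 bases after a start, held 9 windows for 5 of the 9 genes (Foxa1, Foxa2, Pdgfra, Hnf4a and Dab2). The part of 8 of these windows that precedes the start and any annotated UTR is shown 5′ to 3′ on the strand of the gene, with each CG in capitals. Both Dab2 windows come first, followed by those of Foxa1 and Foxa2, which overlap peaks, and by those of Hnf4a and Pdgfra, which do not.
Dab2 outer start (chr15:6299539-6299787, plus strand): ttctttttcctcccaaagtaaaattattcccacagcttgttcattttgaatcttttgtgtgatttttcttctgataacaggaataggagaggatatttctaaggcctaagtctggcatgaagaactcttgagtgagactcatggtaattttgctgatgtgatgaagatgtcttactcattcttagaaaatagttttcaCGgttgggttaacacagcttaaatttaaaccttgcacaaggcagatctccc
Dab2 internal start (chr15:6386498-6386597, plus strand): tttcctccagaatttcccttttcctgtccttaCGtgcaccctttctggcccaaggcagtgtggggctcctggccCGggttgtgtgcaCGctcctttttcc
Foxa1 start (chr12:57546122-57546361, minus strand): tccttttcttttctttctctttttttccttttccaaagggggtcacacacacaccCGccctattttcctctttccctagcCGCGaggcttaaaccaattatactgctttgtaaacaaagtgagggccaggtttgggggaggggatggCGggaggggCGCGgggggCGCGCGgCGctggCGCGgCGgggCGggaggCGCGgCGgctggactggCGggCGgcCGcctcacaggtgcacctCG
Foxa2 inner start (chr2:148045949-148046198, minus strand): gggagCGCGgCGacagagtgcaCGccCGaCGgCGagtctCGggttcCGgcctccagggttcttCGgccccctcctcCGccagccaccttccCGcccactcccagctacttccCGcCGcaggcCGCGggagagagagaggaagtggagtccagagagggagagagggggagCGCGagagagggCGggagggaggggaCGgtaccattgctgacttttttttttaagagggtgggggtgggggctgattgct
Foxa2 outer start (chr2:148046970-148047219, minus strand): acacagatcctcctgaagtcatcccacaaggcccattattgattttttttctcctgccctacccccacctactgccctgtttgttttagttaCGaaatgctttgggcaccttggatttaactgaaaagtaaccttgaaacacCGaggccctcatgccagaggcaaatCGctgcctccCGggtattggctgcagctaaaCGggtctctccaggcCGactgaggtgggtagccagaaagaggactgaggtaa
Hnf4a first start (chr2:163506607-163506807, plus strand): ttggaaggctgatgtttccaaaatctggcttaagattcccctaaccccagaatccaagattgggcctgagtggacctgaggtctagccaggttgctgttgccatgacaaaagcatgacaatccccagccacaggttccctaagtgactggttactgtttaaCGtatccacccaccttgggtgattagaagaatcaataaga
Hnf4a second start (chr2:163546905-163547154, plus strand): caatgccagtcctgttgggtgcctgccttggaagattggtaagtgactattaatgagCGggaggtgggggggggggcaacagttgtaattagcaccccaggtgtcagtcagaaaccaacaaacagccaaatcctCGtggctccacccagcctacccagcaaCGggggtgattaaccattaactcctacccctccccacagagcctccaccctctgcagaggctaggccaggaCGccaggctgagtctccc
Pdgfra start (chr5:75152001-75152250, plus strand): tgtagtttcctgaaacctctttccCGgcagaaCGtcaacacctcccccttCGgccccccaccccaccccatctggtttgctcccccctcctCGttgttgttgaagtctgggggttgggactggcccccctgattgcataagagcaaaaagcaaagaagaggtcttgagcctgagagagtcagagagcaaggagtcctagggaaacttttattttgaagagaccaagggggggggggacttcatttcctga

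Counted over whole windows, including bases not shown, the window at the outer start of Dab2 held 2 CpGs in 300 bases and lay 18451 bp from the nearest peak. The window at its internal start held 19 CpGs, and all 300 bases of it lay inside a peak. The Foxa1 window held 26 CpGs and had 253 bases in a peak. The 3 Foxa2 windows held 12, 23 and 13 CpGs and had 67, 300 and 64 bases in a peak. By contrast, the windows at both starts of Hnf4a held 4 CpGs each and that of Pdgfra held 5, and they lay 3134, 11364 and 690 bp from a peak. Thus the 5 windows that overlapped a peak held 12 to 26 CpGs and the 4 that did not held 2 to 5. The median over all 32851 RefSeq promoter windows was 7 CpGs, with quartiles at 3 and 20. A peak overlapped 50.3% of all windows, 92.9% of those with at least 10 CpGs and 17.5% of those with fewer, a limit chosen after the values were seen. Of the 9 endoderm windows these were 5 of 5 and 0 of 4, close to the shares over all promoters.

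Of the 9 genes, 8 had a TSS peak, against 70.8% of all protein-coding genes, and Hnf4a had none. The genes have 53 annotated TSS positions, and 25 of these lay inside a peak. For the 8 genes with a TSS peak this was 25 of 48 positions, against 60% of positions over all protein-coding genes with a TSS peak. Several TSS peaks were found at 5 of the 8 genes (4 at Pdgfra, 3 at Gata6, and 2 each at Sox17, Foxa1 and Foxa2), against 25.2% of genes with a TSS peak. Genes with more annotated starts have more chances of this. Among those with at least 5 annotated TSSs, 3 of 5 endoderm genes and 36.3% of all genes had several TSS peaks. The peaks of 810 bp at Foxa1, 1607 bp at Foxa2 and 299 bp at Pdgfra held no annotated start. They were counted by the position of their centres, as was done for all genes. The outermost annotated start, the 5′ end of the gene record, lay inside a peak at 4 of the 8 genes (Sox7, Sox17, Foxa1 and Foxa2), against 84.8% of genes with a TSS peak. Among genes with at least 5 annotated TSSs it did so at 1 of 5 endoderm genes and at 84.2% of all genes.

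**Figure D1:**
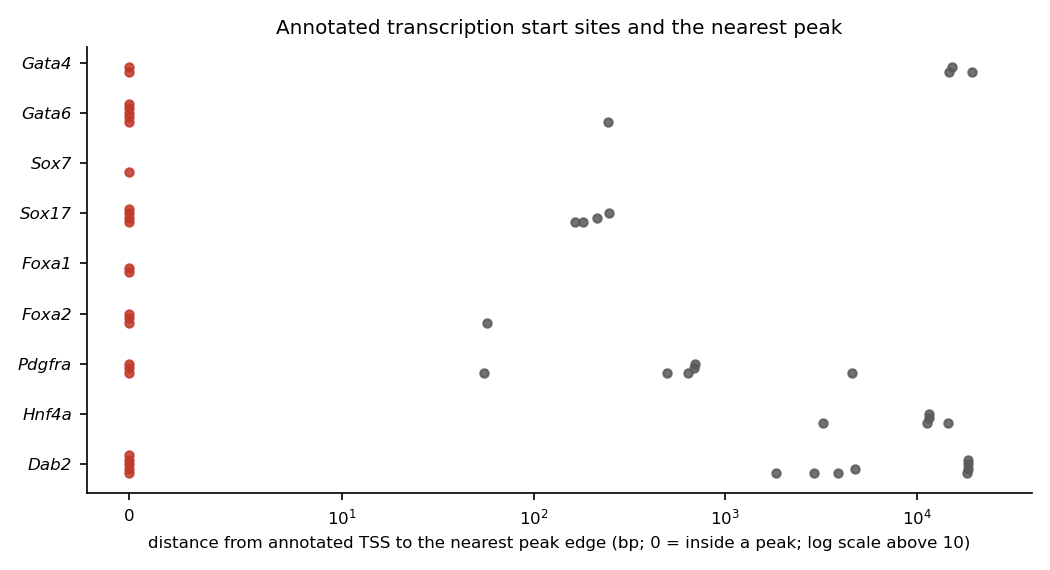
Distance in bp from each annotated TSS of the 9 genes to the edge of the nearest peak, on a log scale above 10 bp. Each point is 1 TSS position, red points (25 of 53) lie inside a peak, all starts of Hnf4a lie at least 3232 bp away, and the outer starts of Gata4 and Dab2 lie at least 14784 and 18421 bp away.

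Gata4 (chromosome 14, 63198922 to 63271692, minus strand) encodes a GATA factor of endoderm and heart. It had 5 annotated TSSs and 1 TSS peak, of 932 bp (63244884 to 63245815), which held 2 starts 26421 and 26444 bp downstream of the first one. The most upstream starts lay 14784 and 15352 bp from the nearest peak. The Gata4 peak thus lay at internal starts and not at the outermost ones, and 78.2% of genes with a TSS peak had one at least as wide.

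Gata6 (chromosome 18, 11052064 to 11085635, plus strand), the GATA factor that comes first in primitive endoderm, had 6 annotated TSSs and 3 TSS peaks, of 1270, 1535 and 265 bp. Of the 6 starts, 5 lay inside these peaks, and the first start lay 246 bp outside. The 1535 bp peak had a GC content of 68.5% and 154 CpGs, and its ratio of observed to expected CpGs of 0.856 was reached by 13.3% of genes with a TSS peak. The 1270 bp peak also held a TSS of the neighbouring noncoding gene 1010001N08Rik, so this peak cannot be assigned to Gata6 alone.

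Sox7 (chromosome 14, 63943673 to 63950732, plus strand) and Sox17 (chromosome 1, 4490931 to 4497354, minus strand) encode SOX factors of primitive endoderm and blood vessels, and Sox17 also marks definitive endoderm. Sox7 had 1 annotated TSS, inside a peak of 1189 bp. Sox17 had 8 annotated TSSs and 2 TSS peaks, 1 of 1157 bp at the outer starts (4496577 to 4497733) and 1 of 2120 bp over the inner starts and the body of the gene (4491735 to 4493854). The latter was the widest TSS peak among the 8 genes, and 3.84% of genes with a TSS peak had one at least as wide. The 4 Sox17 starts outside a peak lay within 247 bp of the 1157 bp peak, which also held a TSS of the gene model Gm37587.

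Foxa1 (chromosome 12, 57540628 to 57546916, minus strand) and Foxa2 (chromosome 2, 148042877 to 148046969, minus strand) encode forkhead factors that can bind closed chromatin. Both annotated starts of Foxa1 lay inside a peak of 1084 bp, and a second peak of 810 bp followed within the gene. At Foxa2, 3 of 4 starts lay in a peak of 1336 bp, the fourth lay between it and a second peak of 1607 bp, 57 bp from the edge of the second, and the second peak lay over the body of the gene. In both genes the second peak held no annotated start, but its centre lay within 1 kb of one. The widest peak at Foxa2 was matched or exceeded in width by 17.8% of genes with a TSS peak.

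Hnf4a (chromosome 2, 163506808 to 163572910, plus strand) encodes a nuclear receptor of liver and visceral endoderm. None of its 5 annotated TSSs lay in a peak or within 1 kb of a peak centre. The nearest peak to the first start was an intronic peak of 464 bp (163510040 to 163510503), 3232 bp away. The second cluster of starts, 40009 to 40380 bp downstream of the first and shown above by the window with 4 CpGs, lay 11276 to 11647 bp from a peak. Hnf4a nevertheless had 11 distal peaks, 6 of them in its introns, of which 5 also lie in the antisense gene Hnf4aos.

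Pdgfra (chromosome 5, 75152292 to 75198215, plus strand) encodes a receptor for platelet-derived growth factor that marks primitive endoderm and mesoderm. Its 3 outermost starts lay 638 to 698 bp from the nearest peak. Its 4 TSS peaks, of 717, 299, 423 and 1004 bp, all lay downstream of these starts, and 3 of the 9 annotated TSSs were inside them. The 717 bp peak also held a TSS of the gene model Gm42802. The narrower peaks of 299 and 423 bp had CpG ratios of 0.362 and 0.408, below the 0.814 and 0.699 of the peaks of 717 and 1004 bp.

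Dab2 (chromosome 15, 6299788 to 6440712, plus strand) encodes an endocytic adaptor that is needed in visceral endoderm. Its single TSS peak, of 1174 bp (6386027 to 6387200), held 5 internal starts 86810 to 86991 bp downstream of the first one. The 4 outer starts lay 18421 to 18501 bp from a peak, and the 4 starts further downstream lay 1850 to 4790 bp from one. The Dab2 peak had the lowest GC content of the 8 genes (49.2%) and a CpG ratio of 0.774.

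In size and composition the TSS peaks of these genes lay inside the range of other genes. Where a gene had several TSS peaks, the widest was used. Its median width was 1181.5 bp over the 8 genes (range 932 to 2120 bp) and 1219 bp over 15535 protein-coding genes with a TSS peak. Of these 8 genes, 3 reached 1500 bp (Gata6, Sox17 and Foxa2), against 23.8% of genes. The median summed width of all TSS peaks of a gene was 2168.5 bp, against 1316 bp. The median ratio of observed to expected CpGs was 0.720 (range 0.601 to 0.856), against 0.695. All 8 genes reached 0.6, 1 of the usual limits for CpG islands, as did 69.7% of genes. The lowest value, at Foxa1, was close to this limit. Counting every TSS peak rather than the widest, 13 of 16 reached it, against 57.6% of every TSS peak of protein-coding genes. The median GC content was 62.5% (range 49.2% at Dab2 to 68.5% at Gata6), against 59.4%. No limit of GC content was applied, so the peaks were not called as CpG islands.

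**Figure D2:**
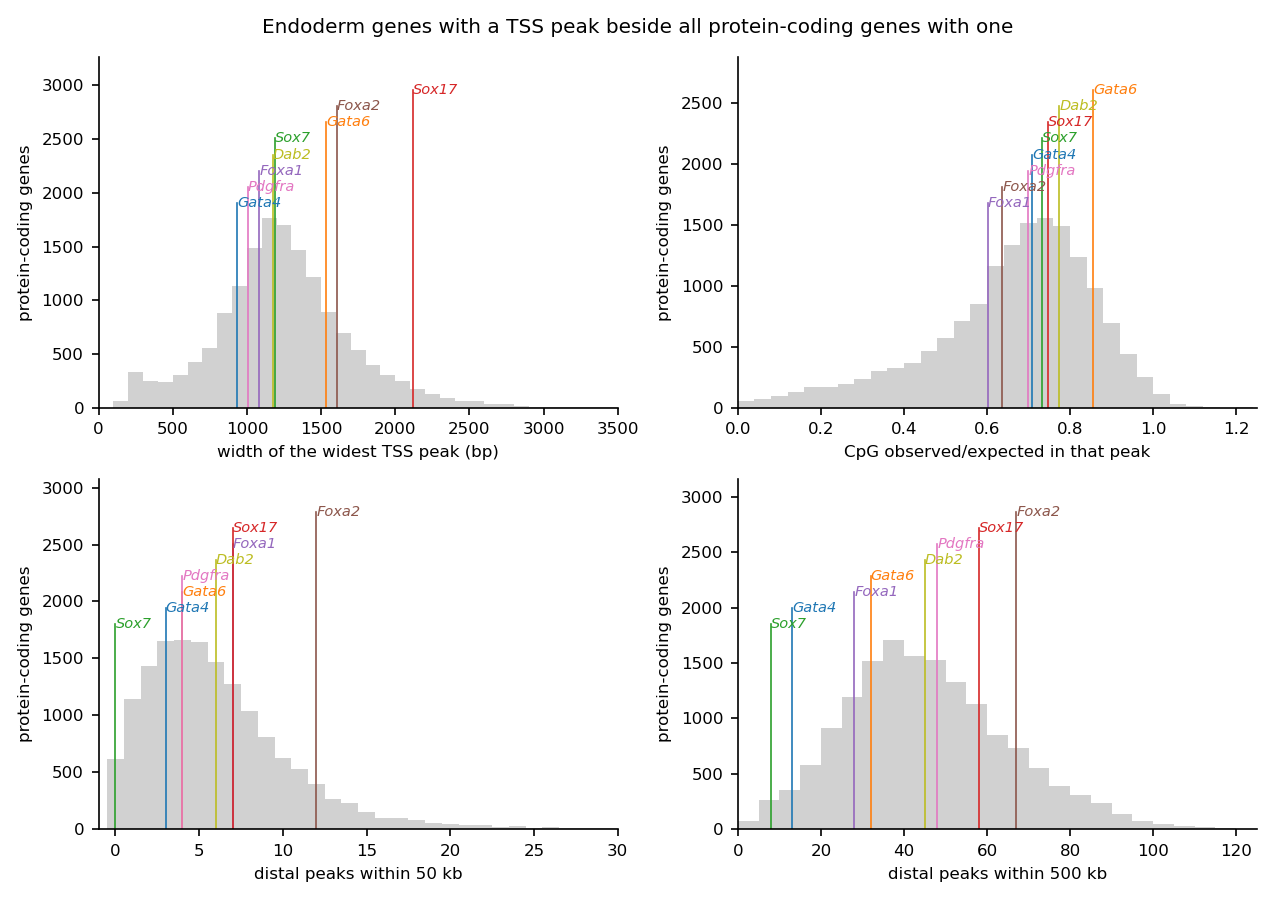
Width in bp of the widest TSS peak, its ratio of observed to expected CpGs, and the distal peaks counted within 50 kb and within 500 kb, for 15535 protein-coding genes with a TSS peak (grey bars, number of genes) and for 8 endoderm genes (coloured lines at arbitrary heights). Widths run from 932 bp (Gata4) to 2120 bp (Sox17), and Sox7 and Gata4 have the fewest distal peaks on both scales.

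Distal peaks were counted next, as possible enhancers. The counts were 3 at Gata4, 4 at Gata6, 0 at Sox7, 7 at Sox17, 7 at Foxa1, 12 at Foxa2, 4 at Pdgfra, 11 at Hnf4a and 6 at Dab2. The median over the 8 genes with a TSS peak was 5, equal to the median of 5 over all such genes. Of the 8, 1 gene (Foxa2) had 10 or more, against 17.9% of genes, and 1 (Sox7) had none, against 3.97% of genes. Genes with starts far apart have longer windows. Per 100 kb of window, Foxa2 had 11.8 distal peaks, Hnf4a 7.68, Foxa1 6.94, Sox17 6.75, Gata6 3.74, Pdgfra 3.65, Dab2 2.69, Gata4 1.90 and Sox7 0, with a median of 3.70 over the 8 genes against 4.42. Over a wider distance, within 500 kb of the middle of their starts, Foxa2 had 67 distal peaks, Sox17 and Hnf4a 58 each, Pdgfra 48, Dab2 45, Gata6 32, Foxa1 28, Gata4 13 and Sox7 8. The median over all genes with a TSS peak was 43, and 3.93% of them had no more than Gata4 and 1.83% no more than Sox7. The 500 kb windows of these 2 genes overlap on chromosome 14, so their counts are not independent. The farthest distal peak counted lay 48298 bp from its gene and the nearest one left out lay 53846.5 bp, and the TSS peak nearest to the limit of 1 kb had its centre 860 bp from a start, whereas the distal peak closest to a start of its own gene was 1266 bp away and the one closest to a start of any gene, near Foxa2, was 1165 bp away.

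**Figure D3:**
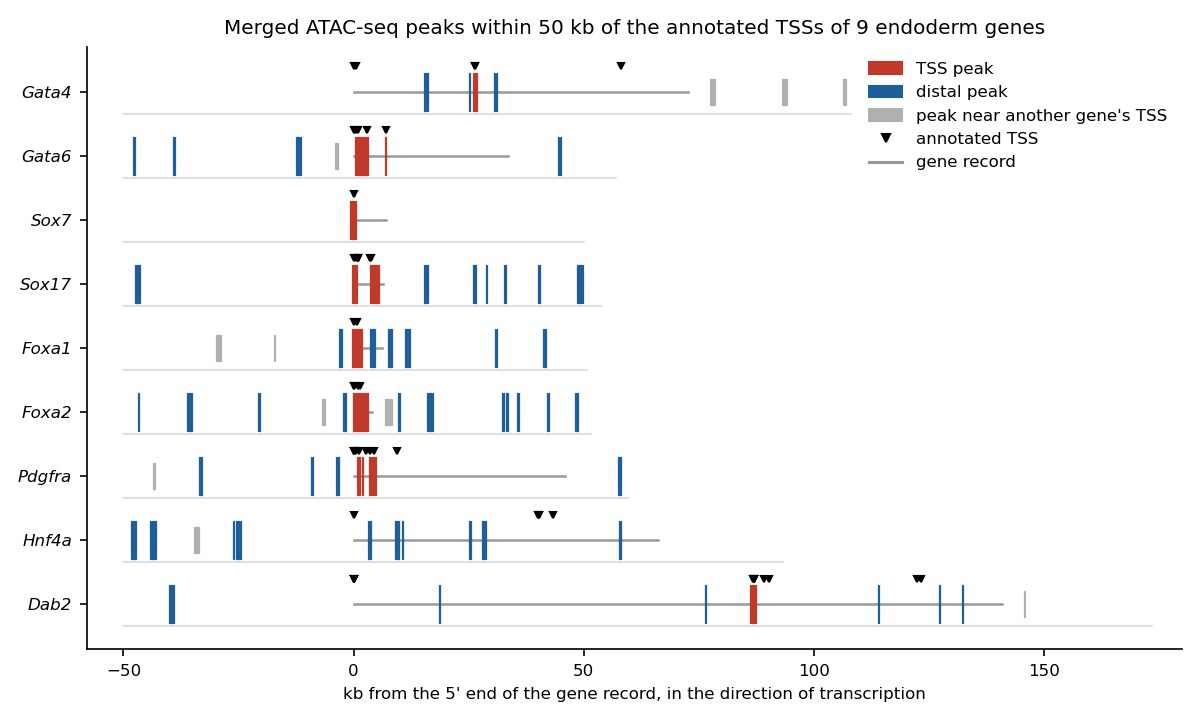
Peaks within 50 kb of the annotated TSSs (triangles) of the 9 genes, in kb from the 5′ end of the gene record in the direction of transcription. TSS peaks are red, distal peaks blue and peaks at the TSS of another gene grey, grey lines through the peaks the gene records, light lines below them the extent of the windows, and the narrowest peaks are drawn slightly wider than to scale. Sox7 has 1 TSS peak and no other, whereas Foxa2 is flanked by 12 distal peaks.

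For most distal peaks the endoderm gene was also the nearest coding gene. For 48 of the 54 distal peaks the nearest TSS of any protein-coding gene was that of the endoderm gene, against 48.9% of all pairs of a protein-coding gene and a distal peak within 50 kb. The exceptions were 5 peaks upstream of Hnf4a that were nearer to Fitm2, which encodes a protein of lipid droplet formation, and 1 peak downstream of Sox17 that was nearer to Rp1, a photoreceptor gene. When distal peaks were assigned only to the gene with the nearest coding TSS, the median stayed at 5 for the endoderm genes with a TSS peak and was 2 for all genes with one. Noncoding genes did lie nearby. Of the 12 distal peaks of Foxa2, 7 were in introns of 9030622O22Rik, and of the 4 of Gata6, 3 were in introns of 1010001N08Rik. Of the 54 peaks, 26 lay upstream of the nearest own TSS, against 49.2% of the same pairs over all protein-coding genes, and 15 lay within 10 kb of one, against 24%. Of all, 2 were centred in exons, 25 in introns and 27 between genes, shares of 3.70%, 46.3% and 50%, against 6.14%, 44.3% and 49.6% of all 89797 distal peaks. Here and below, the set of all distal peaks has no upper limit of distance to a gene, unlike the 54 peaks, which lie within 50 kb of one.

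The distal peaks had a median width of 513 bp (quartiles 294 and 777 bp), against 380 bp for all distal peaks (quartiles 251 and 642 bp). Of the 54 peaks, 7 were at least 1000 bp wide, against 7.28% of all distal peaks, and the widest, of 1323 bp, was intronic in 9030622O22Rik, 15014 bp downstream of the nearest Foxa2 start. Median GC content was 49.0%, against 47.7%. The share of repeat-masked bases had a median of 7.98%, against 13.0%. It reached 78.4% in the peak of Sox17 at 4464335 to 4464617.

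CpG-rich distal peaks were found at 3 of the genes. A ratio of observed to expected CpGs of at least 0.6 was reached by 6 of the 54 distal peaks, against 3.49% of all distal peaks. These 6 peaks belong to 3 loci, so they are not independent. All 3 distal peaks of Gata4 were among them. They were an exonic peak of 556 bp with a GC content of 73.0% and a ratio of 0.717 (63240519 to 63241074), an intronic peak of 202 bp with 0.683 (63246436 to 63246637), and an intronic peak of 852 bp with 0.891 (63255489 to 63256340). At Foxa1 an exonic peak of 1133 bp had 0.751 (57542277 to 57543409) and a peak of 949 bp downstream of the gene had 0.788 (57538540 to 57539488). At Foxa2 a peak of 679 bp upstream of the gene had 0.687 (148048572 to 148049250). The centres of these 6 peaks lay 1266 to 10644 bp from the nearest own start. The median ratio of the 54 distal peaks was 0.295, against 0.210.

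**Figure D4:**
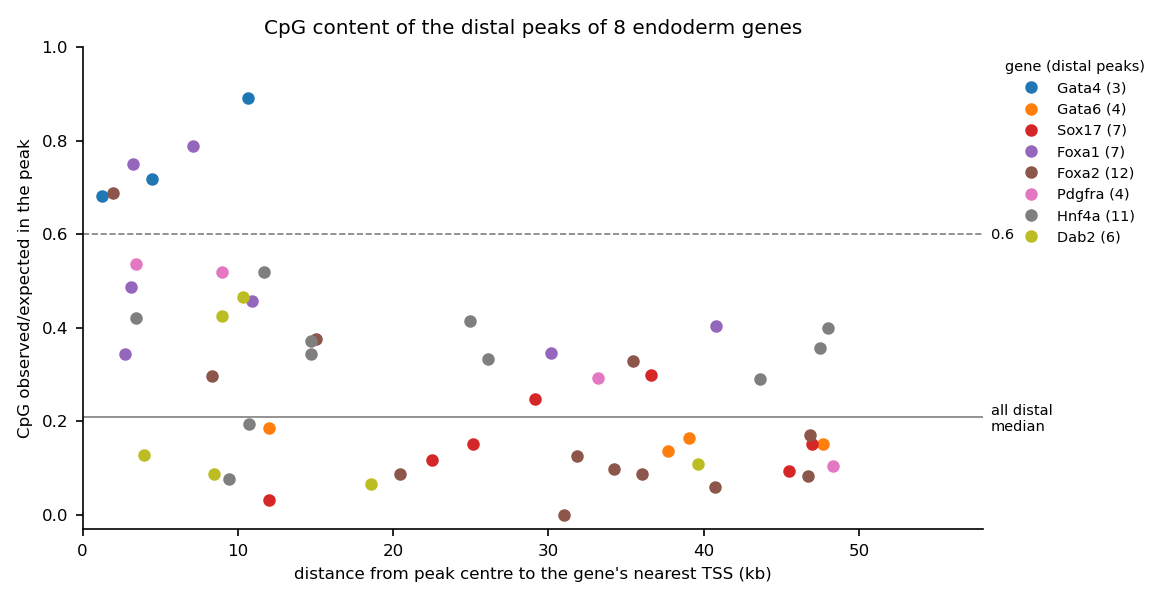
Ratio of observed to expected CpGs in each of the 54 distal peaks against the distance in kb from its centre to the nearest TSS of the gene it was assigned to (colours, with the number of peaks per gene). The 6 peaks above 0.6 (dashed line) belong to Gata4, Foxa1 and Foxa2 and lie within 10644 bp of a start, and the solid line is the median of all distal peaks, 0.210.

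Several of the 9 genes encode factors with known recognition sequences, so matches to these were counted in the 500 bp around the centre of each distal peak, on both strands. A match is a string of letters and not a bound site. A GATA match (AGATAAG or TGATAAG) was present in 9 of the 54 peaks (16.7%), against 10.9% of all distal peaks. A FOXA match (TGTTTAC or TGTTTGC) was present in 11 (20.4%), against 17.1%. A SOX match (CCATTGT or CCTTTGT) was present in 12 (22.2%), against 23.2%. An HNF4A match (CAAAGTCCA or CAAAGGTCA) was present in 1, in the intronic 1323 bp peak near Foxa2, against 2% of all distal peaks. In 200 bp windows the GATA share was 13.0% against 4.39% and the FOXA share 11.1% against 7.12%, so the ratio of the GATA shares was 2.95 in the narrower windows and 1.53 in the wider ones. In whole peaks the GATA share was 20.4% against 10.1% and the FOXA share 24.1% against 16.2%. All these shares rest on few peaks, and several peaks belong to the same gene, so they are not independent. GATA or FOXA matches were present in 17 of the 54 windows, against 26.1% of all distal peaks.

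Motifs of pluripotency factors and of CTCF were counted in the same way. The octamer ATTTGCAT was in none of the 54 windows, against 3.23% of all distal peaks, and the joint OCT4::SOX2 motif with at most 2 mismatches was in none, against 0.253%. A count of 0 of 54 allows a share of up to 5.56% (3 counts of 54), so a difference from either share was not detectable. The KLF match (GGGTGTGGC or GGGCGTGGC) was in 1 peak, against 4.01%, and the ESRRB match (TCAAGGTCA, which overlaps the second HNF4A form in its last letters) in 1, against 3.16%. Both were upstream or in an intron of Hnf4a. The CTCF motif, with at most 1 mismatch, was in 9 peaks (16.7%), against 16.7% of all distal peaks. In the 9 promoter windows 1 GATA match (outer start of Dab2), 1 FOXA match (Foxa1) and 1 CTCF match (internal start of Dab2) were found, and these motifs occurred in 5.21%, 8.48% and 4.33% of all RefSeq promoter windows.

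The GATA and FOXA matches of these 500 bp windows that also lay inside the peaks are shown for the 5 genes with RefSeq promoter windows, since the factors that read them are encoded by members of the same group. Each is printed 5′ to 3′ on the strand of the match with 10 bases on either side, and the match is in capitals. Matches in wide peaks outside the windows are not shown.
GATA match near Foxa1 (chr12:57516041-57516067, minus strand): tgccttgtgaAGATAAGgccgactctc
GATA match near Foxa1 (chr12:57549699-57549725, plus strand): ccctctcaccAGATAAGaagcttaaat
GATA match near Foxa2 (chr2:148013579-148013605, plus strand): gaagcatgacAGATAAGgccagaggag
FOXA match near Foxa2 (chr2:148082444-148082470, plus strand): acagccctgcTGTTTGCtgctgctcta
GATA match near Pdgfra (chr5:75210198-75210224, minus strand): gatgcactagAGATAAGccaggcccac
FOXA match near Pdgfra (chr5:75210178-75210204, plus strand): gttgtgctaaTGTTTACttagtgggcc
GATA match near Hnf4a (chr2:163458684-163458710, plus strand): taagagagtcAGATAAGagagtcggat
FOXA match near Hnf4a (chr2:163482035-163482061, minus strand): attagcctggTGTTTGCagaggctaag
FOXA match near Hnf4a (chr2:163564934-163564960, minus strand): ctgcatgagaTGTTTGCacctgggagc
FOXA match near Dab2 (chr15:6413773-6413799, minus strand): tcctggcttaTGTTTACtggattccat
FOXA match near Dab2 (chr15:6427027-6427053, minus strand): tttataccagTGTTTACcccatgccat
GATA match near Dab2 (chr15:6432190-6432216, plus strand): gagtctgccaTGATAAGtctgtctaaa
GATA match near Dab2 (chr15:6432226-6432252, plus strand): agtaggggtaAGATAAGgagatgttac

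The peaks that held more than 1 of the matches shown were in the Dab2 and Pdgfra loci. An intronic peak of 233 bp, 8977 bp downstream of the nearest Dab2 start, held both of the GATA matches shown for Dab2. In the Pdgfra peak, which lay 48298 bp downstream of the nearest own start, the FOXA and GATA matches lay beside 2 SOX matches within the same 608 bp. At Foxa1, Foxa2 and Hnf4a the matches shown were spread over separate peaks. Of the GATA matches shown, the one closest to a start was upstream of Foxa1, in a peak 2708 bp from its start. The deposited positions do not tell whether any factor was bound at these letters.

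Other genes of the same lineages were examined from lists of other extraembryonic and definitive endoderm genes. Of 24 extraembryonic endoderm genes, 21 had a TSS peak, and of 12 definitive endoderm genes 11 had one. This was the case for 8 of the 9 genes above and for 70.8% of all protein-coding genes. The genes of the 2 lists without one were Cubn (an endocytic receptor of visceral endoderm), Ttr (a thyroid hormone carrier), Apoa1 (an apolipoprotein) and Cer1 (a secreted antagonist of Nodal and BMP). The median width of the widest TSS peak was 1699 bp in the extraembryonic list and 1558 bp in the definitive list. It was 1181.5 bp over the 8 genes above and 1219 bp over all genes with a TSS peak. The median CpG ratios of the lists were 0.711 and 0.764, against 0.695 over all such genes. The widest TSS peaks of Col4a1 and Col4a2 on chromosome 8 had the same width (2081 bp) and CpG ratio (0.712). Thus 1 region may be counted for both genes. The median number of distal peaks was 8 (range 0 to 19) and 6 (range 2 to 10) for genes of the lists with a TSS peak, against 5 over all such genes. Most were counted at Col4a2 (a chain of type IV collagen) and Fgfr2 (a receptor for fibroblast growth factors), with 19 each, and at Lama1 and Lamc1 (chains of laminin), with 17 each. Among genes with a TSS peak, fewest were counted at Cited1 (a transcriptional coregulator) with 0, at Afp (the fetal serum protein alpha-fetoprotein) with 1, and at Plat (tissue plasminogen activator) and Mixl1 (a homeobox factor) with 2 each.

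Beside these, the 10 pluripotency genes had a median of 10 distal peaks (range 2 to 26), and 9 of 10 trophectoderm genes had a TSS peak, with a median of 10 distal peaks (range 5 to 18). The 3 of 10 terminal tissue genes with a TSS peak had a median of 5 (range 3 to 10). Their CpG ratios were 0.229, 0.251 and 0.750, beside medians of 0.664 for the pluripotency genes and 0.720 for the trophectoderm genes. The 9 endoderm genes had a median of 5 among the 8 with a TSS peak (range 0 to 12). The ranges of all lists overlapped, and no test was made between them. The medians of the lists were not scaled to the length of the windows.

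**Figure D5:**
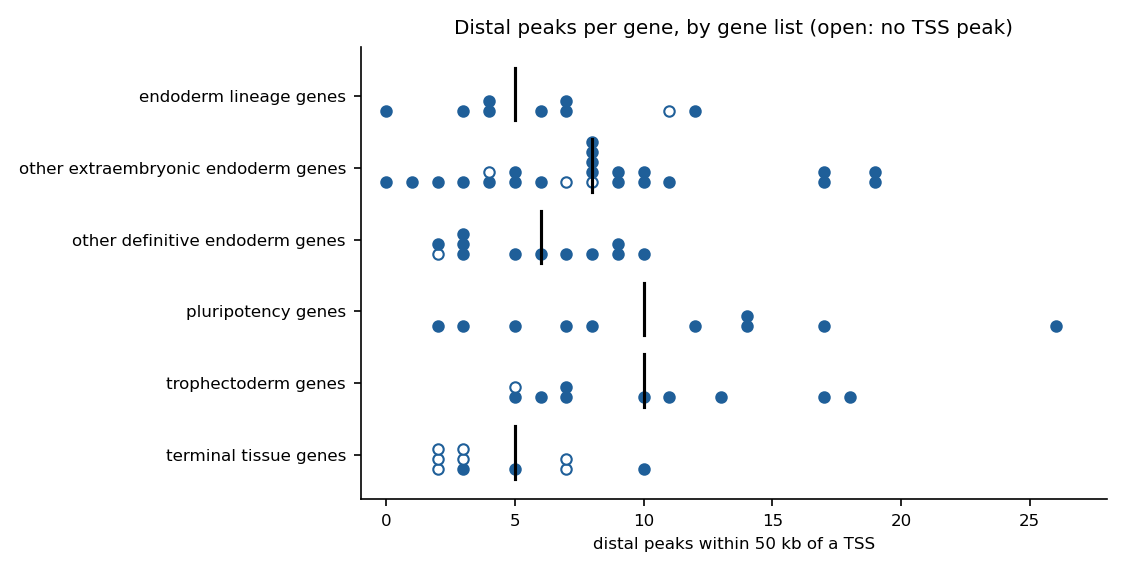
Distal peaks (number within 50 kb of a TSS) for each gene of 6 lists. Each point is 1 gene, open points have no TSS peak, points of equal count are stacked, and the black bars are the medians over genes with a TSS peak, 5 for the endoderm lineage genes and 10 for the pluripotency genes.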

How the data were processed

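The authors aligned the ATAC-seq reads of the 54 samples to GRCm38 with STAR 2.6.1c, removed duplicates with Picard, called peaks from paired-end fragments with MACS2 2.1.1.20160309, and used BEDTools to merge those of dox-treated OCT4-AID cells. The deposited list gives chromosome, start and end in bp (printed 1-based) with no signal. Whether peaks were called per library or on pooled replicates is not given in the sources used here. The methods also describe removal of regions above 5 kb and of those overlapping input peaks or blacklisted regions, so a region missing from the list may have been called and removed. However, 11 regions above 5 kb were in the list, none of them at these genes, and whether the other filters were applied to it was not tested.

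Peaks were compared with GENCODE M21 and the sequence of GRCm38.p6 in Python 3.11.15 with NumPy 2.4.6, and plots were drawn with Matplotlib 3.10.9. The expected number of CpGs was the product of the C and G counts divided by the length. The scripts were tested on simulated data. With no values per sample, no test was run: counts and medians are given beside all protein-coding genes. The genes, lists and motifs were chosen with earlier results of these data known. Of the other endoderm genes, those without a TSS peak and the 3 with the most and the 3 with the fewest distal peaks among those with one were named, with ties. Col4a1 was named for the TSS peak it may share with Col4a2. Neighbouring genes were named only where their TSS lay in a TSS peak or nearest to a distal peak. Alternatives changed the distance limits, the choice of TSS peak, the composition window, the peak filters and the motif windows.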

Additional observations from a re-analysis of the deposited data

How the results depend on the processing

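Values are given here as the median or share of the endoderm genes divided by that of the background. Of 59 alternatives, 52 lay within 1.5 times the reported value or count without crossing a ratio of 1. With only the 5′ end of the gene record, 5 of the 9 genes had a TSS peak in place of 8, below the share of 65.3% of all protein-coding genes, whereas 8 of 9 lay above the share of 70.8%. The width ratio of 0.969 became 1.65 with summed widths, a result of its construction, since several TSS peaks then add up. The CpG ratio of 1.04 became 0.994 in 1 kb around the TSS. The ratio of distal peaks was exactly 1, so no alternative could cross it, and its direction varied: it was 0.836 per 100 kb of window and 2.5 with nearest coding genes only. In whole peaks the SOX ratio went from 0.960 to 1.02 and the octamer ratio from 0 to 0.606, and in 200 bp windows the GATA ratio went from 1.53 to 2.95. Unless stated, the cause was not tested. Leaving out each gene in turn gave ratios of 0.963 to 0.975 for width, 1.02 to 1.05 for CpG content and 0.8 to 1.2 for distal peaks. The use of all 9 genes beside all protein-coding genes (a ratio of 1.5 for distal peaks) and of genes with at least 5 annotated TSSs (0.931 for width) was chosen after seeing the data. No paired analysis was possible because the list holds no values per sample. The unknown depth limits all counts, since a weaker region may be missing from the list.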
